A study of Homo sapiens with 6 samples.

Results

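The genes described here carry the platform symbols of the clustered histone genes, H1-, H2AC, H2BC, H3C or H4C followed by a number. The rule found 50 such genes among the 19775 genes with a probe set of a single symbol, and each was read from its probe set of highest mean signal. They were 11 H1, 9 H2A, 14 H2B, 7 H3 and 9 H4 symbols, and 42 of the 50 lie on chromosome 6 in RefSeq. Gene expression was measured in HepG2, cells of a human hepatoblastoma with many traits of hepatocytes. The cells had received an siRNA that targets HNF4A, a nuclear receptor of liver genes (siHNF4A, spelled siHNF4a in the labels), or a control one (siControl). Each was sampled without TGF-beta (0 h) and after 1.5 h and 24 h with 3 ng/ml TGF-beta, a growth factor whose receptors activate Smad proteins. Each of the 6 combinations was 1 Affymetrix array, with no replicate. Untreated cells of the later times were not analysed here, so TGF-beta and time in culture cannot be told apart. The siRNA labels were not checked against the level of HNF4A, which was not analysed here.

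Histones are the proteins around which DNA is wound. H2A, H2B, H3 and H4 form the core of the nucleosome, and H1 is the linker histone that binds where DNA enters and leaves it. The clustered genes are called replication-dependent because they are transcribed mainly in S phase, when new DNA needs new histones. Their messenger RNAs lack introns and normally end in a stem-loop bound by SLBP rather than in a poly(A) tail, although some of these genes also give polyadenylated transcripts. Per the labels' protocols the RNA was copied from an oligo(dT) primer, which pairs with poly(A). A signal here is therefore a reading of what that primer copied, and how much of the stem-loop form it holds was not tested.

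The label covers some genes that are not replication-dependent. H1-10 is a replication-independent linker histone, and H1-6, H1-7, H1-8 and H2BC1 are genes of germ cells. H1-9P, H2AC5P and H4C10P are pseudogenes and H1-10-AS1 is a noncoding RNA. Of these 9 genes H1-10 was the one with a mean signal above the floor of 12.9, the median of all signals. The other 41 are described as canonical members. They include H2BC12L, an H2B-like gene on chromosome 21 outside the clusters, which was tested and not called.

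HepG2 identity was visible in the liver markers. All 10 liver markers of the list fixed for this purpose, ALB and AFP among them, were tested, with a summed signal of 60282 to 67132. Of 10 blood, endothelial and fibroblast markers on the array 4 had a mean above the floor (CD3E, HBB, PECAM1 and PDGFRB), and the summed signal was 122 to 244. The leukocyte marker PTPRC and the endothelial markers CDH5 and VWF lay under the floor on every array. PECAM1, also an endothelial marker, read 47, 81.8 and 127 in siControl and 65.7, 57.5 and 98 in siHNF4A. It rose at 24 h (1.01 ± 0.27, limma adjusted p = 0.0221), though not without the siControl 0 h array (0.54, adjusted p = 0.396). The untreated siControl array differed from the rest in a control probe set at the 5' end whose name begins with AFFX-HUMRGE, at 8600 against 69.8 to 736.5 on the other 5 arrays. The called members, several-gene probe sets and gene lists are also given without it. In that fit limma's prior degrees of freedom were infinite, so a gene's own spread had no part in its p.

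Signals were low for much of the family. Between 22 and 27 of the 50 genes exceeded the floor on each array, or 44% to 54%. Of all genes, read in the same way, 60.7% to 62.1% did. However, 43 of the 50 have 1 probe set, and reading the brightest set favours genes with several. Over all probe sets 49.1% to 50.7% per array were above the floor. Of the 50, 17 exceeded it on all 6 arrays and 18 on none. The 18 at background were H1-1, H1-5, H1-7, H1-8, H1-10-AS1, H2AC16, H2BC1, H2BC3, H2BC11, H2BC13, H2BC15, H3C1, H3C7, H3C11, H4C1, H4C7, H4C10P and H4C13. A further 8 (H1-4, H1-6, H1-9P, H2AC4, H2AC5P, H2BC14, H2BC17 and H4C9) exceeded it on at least 1 array but not in the mean, and none of those signals was above 20.6. The remaining 24, or 48% against 60.3% of all genes, had a mean above the floor and entered the tests, 3 H1, 6 H2A, 7 H2B, 4 H3 and 4 H4. Clustered histone genes are close copies of each other, and 12 of the 24 were read from probe sets ending in _s_at or _x_at, which can take up transcripts of related genes. Their values are uncertain as measures of 1 gene.

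**Figure D1:**
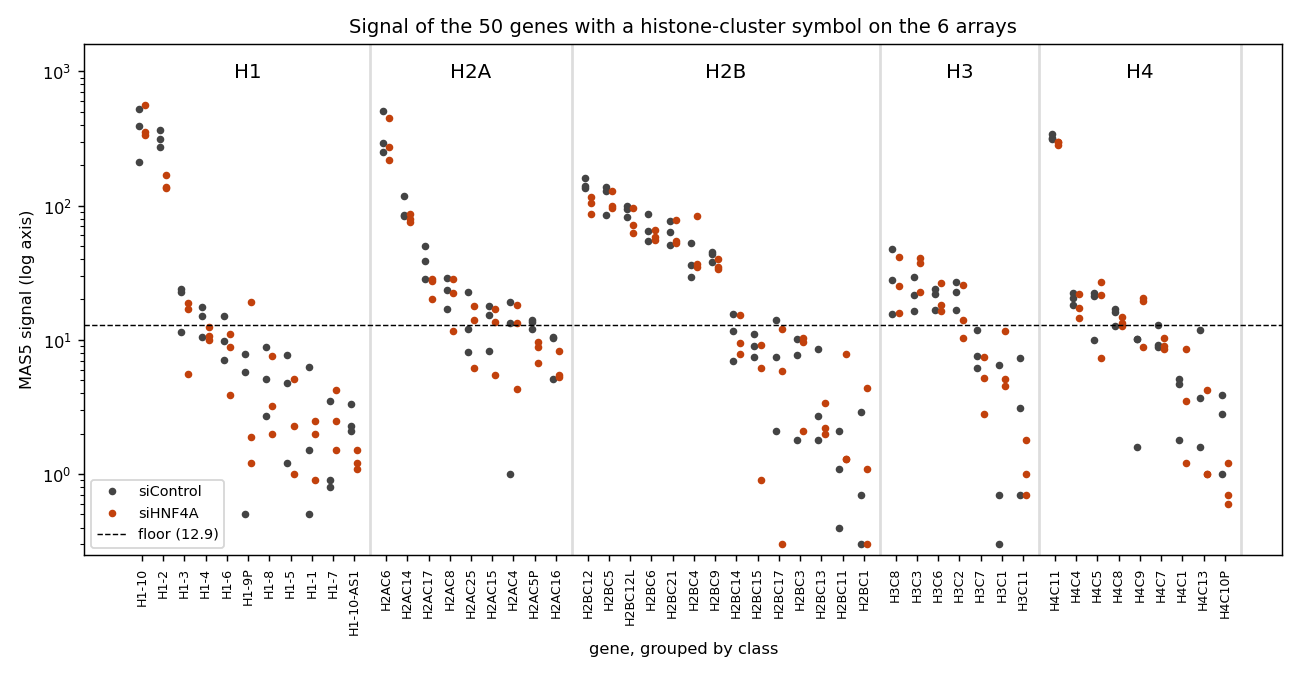
MAS5 signal on a log axis for each of the 50 genes, grouped by histone class, with 3 siControl and 3 siHNF4A arrays as points and the floor of 12.9 as a dashed line. The signals of 17 genes lie above the line on every array and those of 18 lie at or under it on every array.

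The comparison of siRNAs asked which of these genes differ when HNF4A is targeted. H1-2, a main linker histone of somatic cells, fell. Its signal was 315, 274 and 367.5 at 0, 1.5 and 24 h in siControl, and 136, 168.5 and 137.5 in siHNF4A. The highest siHNF4A array lay below the lowest siControl array. The log2 differences at the 3 times, in order, were -1.21, -0.70 and -1.42, and their fitted mean was -1.11 ± 0.16 (limma standard error, adjusted p = 0.000587). Without the siControl 0 h array it was -1.06 and passed. It did not pass when limma's intensity trend was left out (adjusted p = 0.0683) or dim genes were kept in the test (0.334), within a range of 1.96e-05 to 0.334 over the alternatives. In those fits 0.377% and 0% of all genes tested were called.

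H1-2 was the single member called for the siRNA among the 24 tested, in limma with Benjamini-Hochberg adjustment over the 11921 genes tested. Across those genes 4.16% fell and 3.9% rose. The median difference of the 24 members was -0.16, with 20 below 0 and 4 above. The median of all genes tested was -0.04, with 6685 below 0 and 5236 above. H2AC17, H2BC12 and H4C11, which encode core histones, also had each siHNF4A signal below each siControl signal. With H1-2 that is 4 of 24, and none had the opposite order. Of all genes tested 10.4% had their siHNF4A arrays lower in this way and 7.16% higher. H2BC12 read 134, 141 and 161 at 0, 1.5 and 24 h in siControl and 85.9, 105 and 117 in siHNF4A, a difference of -0.51 ± 0.17 that did not pass (adjusted p = 0.0794). It passed with the floor at the 75th percentile (adjusted p = 0.0347, within a range of 0.0347 to 0.329 over the alternatives). H2AC17 read 49.7, 28.6 and 38.8 against 28.4, 27.6 and 20, with -0.60 ± 0.26 (adjusted p = 0.199). Its arms nearly touch, at 28.6 in siControl and 28.4 in siHNF4A.

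The start region of H1-2 is shown because H1-2 was the member that differed between the siRNAs. RefSeq (GRCh38.p14) places it at chr6:26056421-26056720 on the minus strand. It is printed from 250 bases before to 50 after the start. Capitals mark CCAAT, the site read by the factor NF-Y, and the H1 box AAACACA of linker histone promoters, on either strand.
H1-2: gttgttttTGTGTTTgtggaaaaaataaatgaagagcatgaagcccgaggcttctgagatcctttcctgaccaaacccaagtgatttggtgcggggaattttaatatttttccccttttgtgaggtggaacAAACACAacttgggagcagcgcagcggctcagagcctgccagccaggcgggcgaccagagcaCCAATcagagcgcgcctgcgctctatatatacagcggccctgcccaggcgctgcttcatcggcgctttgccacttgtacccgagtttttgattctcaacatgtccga
The H1 box begins 119 bases before the start on the gene's strand and 242 bases before it on the other, and CCAAT begins 57 bases before it. Of the 9 H1 symbols with a window 7 held AAACACA on either strand. None of the 34 members of other classes with a window did, where 6.94% of 27305 genes with a window of this length did. CAAAGTCCA, a form of the HNF4 site, was in none of the 43 members with a window and in 0.472% of all genes with one. At so small a share its absence says nothing about the members, and other forms of the site were not searched. Whether HNF4A acts on H1-2 directly was not tested.

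The late comparison asked which of these genes differ after 24 h with TGF-beta. H2AC6 and H2BC4, a neighbouring pair of H2A and H2B genes, rose. H2AC6 read 295 at 0 h, 252 at 1.5 h and 506 at 24 h in siControl, and 220, 272 and 453 in siHNF4A. Both 24 h arrays lay above the other 4. The log2 difference from 0 h was 0.78 in siControl and 1.04 in siHNF4A, 0.91 ± 0.17 over both (limma adjusted p = 0.00234), and 1.11 without the siControl 0 h array. H2BC4 read 29.3, 36.1 and 52.9 in siControl and 36.7, 34.7 and 83.7 in siHNF4A, again with both 24 h arrays above the rest. Its difference was 0.85 in siControl and 1.19 in siHNF4A, 1.02 ± 0.29 over both (adjusted p = 0.0276). Without the siControl 0 h array it was 1.01 and did not pass (adjusted p = 0.109, within a range of 0.016 to 0.342 over the alternatives), nor did it against 1.5 h (0.0517).

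H1-10, the replication-independent linker histone, measured by a probe set ending in _s_at, fell. It read 389, 526 and 211 at 0, 1.5 and 24 h in siControl and 559, 356 and 338 in siHNF4A. The 24 h array was the lowest of its arm in both, and in siHNF4A it lay close to the 1.5 h array. The difference was -0.89 in siControl and -0.73 in siHNF4A, -0.81 ± 0.23 over both (limma adjusted p = 0.0284), and -1.04 without the siControl 0 h array. Set against 1.5 h it was -0.70 and did not pass (adjusted p = 0.0609, within a range of 0.000335 to 0.607 over the alternatives). It also did not pass in the fit that averaged each gene's probe sets (-0.81, adjusted p = 0.175). H1-10 has 1 probe set and its difference was the same there, while limma's prior degrees of freedom for all genes were 3.62 in place of 12.6.

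So 2 of the 24 members rose and 1 fell at 24 h, where 7.22% of all genes tested rose and 7.82% fell. Among the 23 canonical members tested 2 rose and none fell in limma, with 4 at an unadjusted p under 0.05. Of the 11921 genes tested 3313 had an unadjusted limma p under 0.05 at 24 h. The median difference of the 24 was 0.02, with 12 above 0 and 12 below. The median of all genes tested was -0.03, with 5545 above 0 and 6376 below. H2AC6, H2BC4 and H1-10 all lost their calls without the intensity trend (adjusted p of 0.0596, 0.0611 and 0.205) and with dim genes kept in the test (0.246, 0.342 and 0.607). Of all genes tested 3.83% and 0.00506% were called in those fits. The adjusted p of H2AC6 ran from 0.000214 to 0.246 over the alternatives.

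**Figure D2:**
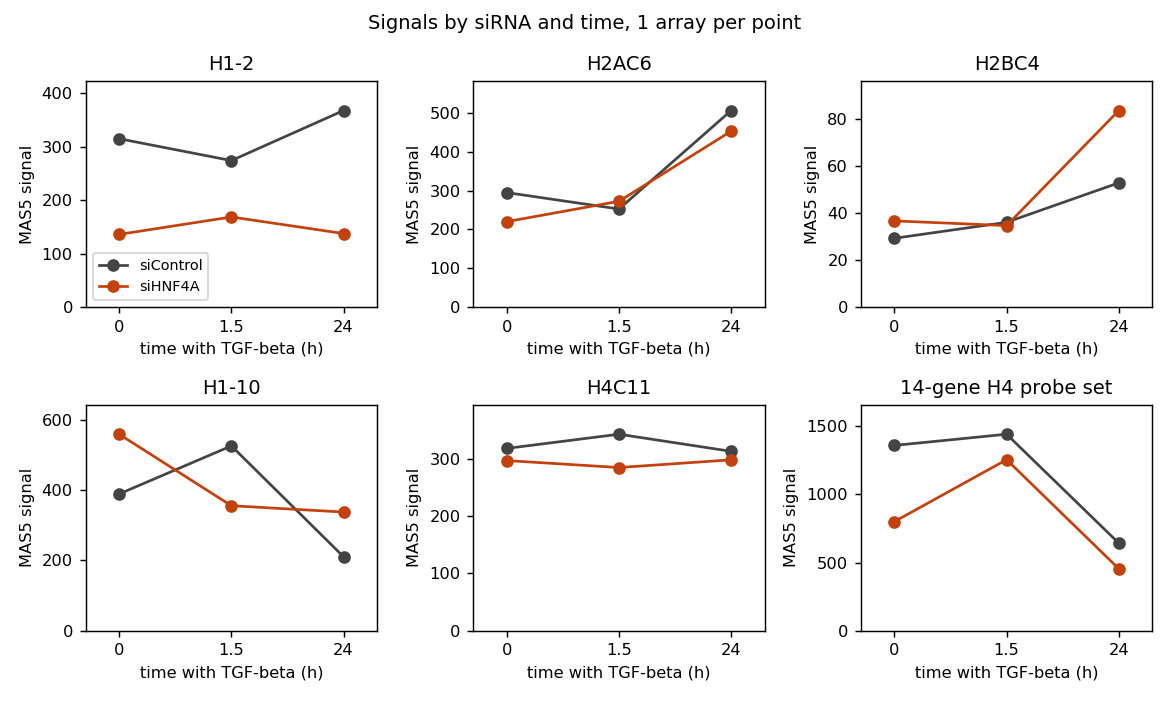
MAS5 signal against time with TGF-beta (0, 1.5 and 24 h, evenly spaced) for 5 genes and the probe set of 14 H4 genes, 1 array per point, lines joining the arrays of an siRNA. H1-2 is separated by siRNA at every time, H2AC6 and H2BC4 are highest at 24 h, H1-10 and the H4 probe set are lowest there, and H4C11 stays between 284 and 342.

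H2AC6 and H2BC4 stand head to head, with starts 246 bases apart, so that their windows on opposite strands overlap over 255 bases. The window of H2AC6, at chr6:26123922-26124221 on the plus strand of GRCh38.p14 in RefSeq, is shown because it holds most of the start region of both called genes. Capitals mark CCAAT, the TATA box TATAAA and the octamer ATTTGCAT, a site read by POU2F1 in H2B promoters, on either strand.
H2AC6: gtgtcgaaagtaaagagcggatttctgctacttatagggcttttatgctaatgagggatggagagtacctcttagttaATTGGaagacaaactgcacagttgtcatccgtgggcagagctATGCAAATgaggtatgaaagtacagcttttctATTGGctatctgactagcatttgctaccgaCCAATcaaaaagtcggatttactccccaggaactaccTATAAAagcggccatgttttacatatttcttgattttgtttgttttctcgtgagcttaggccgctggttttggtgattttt
TATAAA begins 31 bases before the start of H2AC6. The octamer lies between the 2 starts, beginning 130 bases before that of H2AC6, where it reads ATGCAAAT, and 123 bases before that of H2BC4. The octamer was in 10 of 13 H2B members and 6 of 8 H2A members with a window. None of the 22 H1, H3 and H4 members with a window held it, where 2.19% of all genes with a window did. CCAAT was in 37 of the 43 members with a window and in 39.7% of all genes with one. TATAAA was in 28 of 43 members and in 14% of those genes. Members that were not called hold these sites too. With the called ones counted, 18 of the 23 tested members with a window had CCAAT and 9 had the octamer. The start regions of 12 pairs of histone genes overlap in this way, and H2AC6 with H2BC4 was the single pair in which both genes were tested. H2BC7 is paired with both H2AC7 and H3C4, each time with starts 223 bases apart, so a start region may be counted more than once.

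The window of H1-10, at chr3:129316237-129316536 on the minus strand of GRCh38.p14 in RefSeq, is shown beside them as the start region of the member that fell at 24 h. Capitals mark TATAAA, which begins 31 bases before the start. CCAAT, the octamer and the H1 box are not in it.
H1-10: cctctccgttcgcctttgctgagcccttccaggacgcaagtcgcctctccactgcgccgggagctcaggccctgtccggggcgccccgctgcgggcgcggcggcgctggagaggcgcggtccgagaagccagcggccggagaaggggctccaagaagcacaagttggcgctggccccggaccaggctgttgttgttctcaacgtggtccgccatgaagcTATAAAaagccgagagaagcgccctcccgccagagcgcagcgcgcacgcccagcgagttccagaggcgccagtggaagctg
Its G and C content was 68.7%, against 51.7% in H1-2 and 41% in H2AC6.

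The other H1 and H2A members gave no call. H1-2 had 0.12 ± 0.20 at 24 h, and H1-3, another somatic linker histone, read 24.0, 11.4 and 22.8 in siControl and 18.9, 5.6 and 16.9 in siHNF4A, with its 1.5 h arrays under the floor in both arms. H2AC14 read 75.5 to 119 over the 6 arrays. H2AC8 read 16.9, 28.8 and 23.7 in siControl and 28.2, 22.4 and 11.6 in siHNF4A, so that its siRNA difference was 0.74 at 0 h and -0.88 at 24 h, the last signal being set to the floor. H2AC25, which lies on chromosome 1, read 8.1, 22.8 and 12.1 in siControl and 6.2, 14 and 17.8 in siHNF4A, under the floor on 3 of 6 arrays. H2AC17 had -0.43 ± 0.32 at 24 h.

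Among H2B members H2BC21, H2BC12 and H2BC5 had positive differences at 24 h that did not pass. H2BC21 read 50.8, 63.2 and 77.3 in siControl and 52.3, 54.6 and 78.2 in siHNF4A. Both 24 h arrays lay above the other 4, and the difference was 0.59 ± 0.25 (limma adjusted p = 0.136). H2BC12 had 0.35 ± 0.21. H2BC5, read from a probe set ending in _x_at, had 129, 84.6 and 137.5 in siControl and 98.7, 96.6 and 128.5 in siHNF4A, a difference of 0.24 ± 0.22. The second probe set of H2BC5 gave 0.52 for the same difference. H2BC12L read 93.9, 82.6 and 99 in siControl and 96.1, 72.2 and 62 in siHNF4A, with -0.28 ± 0.25. The arms of H2BC12L were close at 0 h and farthest apart at 24 h. H2BC6 read 86.2, 54.9 and 64.9 in siControl and 57.9, 55.9 and 65.3 in siHNF4A, a single high array, with -0.12 ± 0.26. The median of the 7 H2B members was 0.24 at 24 h, and that of the 6 H2A members was -0.07.

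The 4 tested H3 members were dim, with signals of 10.4 to 47.7. H3C3 read 29.6, 21.5 and 16.4 in siControl and 37.4, 40.4 and 22.7 in siHNF4A. It was higher in siHNF4A at each time, by 0.57 ± 0.26 (limma adjusted p = 0.22), and lower at 24 h in both arms, by -0.79 ± 0.32 (adjusted p = 0.119), and neither passed. H3C8 read 15.7, 47.7 and 28.0 in siControl and 25.3, 15.9 and 41.3 in siHNF4A, a single high array at 1.5 h in siControl and at 24 h in siHNF4A. Its 24 h difference was 0.77 ± 0.46, and 0.17 without the siControl 0 h array. H3C6 read 16.6, 24.1 and 22 in siControl and 18.3, 16.5 and 26.6 in siHNF4A, with 0.47 ± 0.35 at 24 h. H3C2 read 27.2, 16.8 and 22.7 in siControl and 25.8, 14.1 and 10.4 in siHNF4A, with -0.63 ± 0.35. Its 0 h array was the highest of each arm.

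Among H4 members H4C11 was the steadiest. It read 318, 342 and 312.5 in siControl and 296, 284 and 298 in siHNF4A, with -0.01 ± 0.16 at 24 h and -0.15 ± 0.13 for the siRNA. Its probe set ends in _x_at. H4C4, H4C5 and H4C8 stayed at or under 27.1, and H4C5 read 22.3, 9.9 and 21.2 in siControl and 21.6, 27.1 and 7.3 in siHNF4A.

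**Figure D3:**
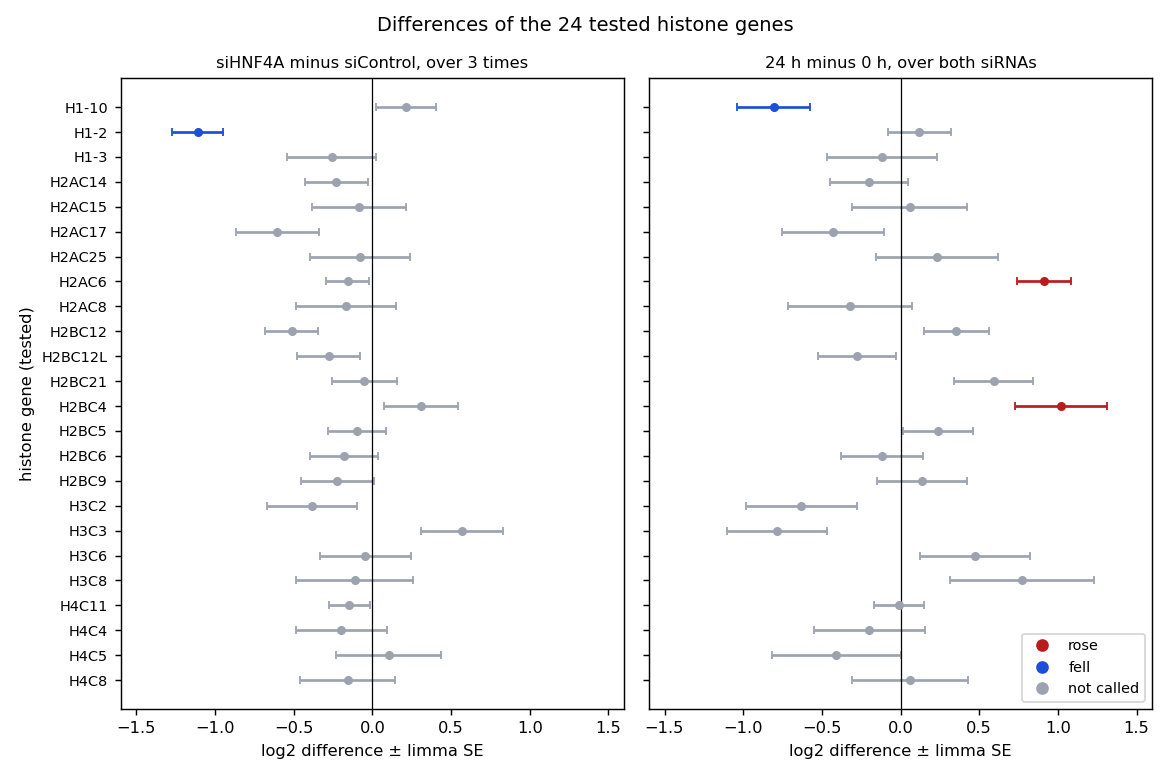
Log2 differences with limma standard errors of the 24 tested members, siHNF4A minus siControl over 3 times on the left and 24 h minus 0 h over both siRNAs on the right, coloured by call. H1-2 lies at -1.11 on the left, and on the right H2AC6 (0.91) and H2BC4 (1.02) rose and H1-10 (-0.81) fell.

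No member was called at 1.5 h or for a difference between the arms. At 1.5 h against 0 h limma called none of 24, with 1 at an unadjusted p under 0.05, where 0.0839% of all genes tested rose and 0.0168% fell. That 1 was H3C2 (-0.78 ± 0.35). Of the 11921 genes tested 364 had an unadjusted limma p under 0.05 at 1.5 h. The median of the 24 was -0.07, against -0.01 for all genes tested. A test of whether the siRNA effect at 24 h differed from its mean at 0 and 1.5 h called none of 24. It called 0% of all genes tested. None of the 24 had an unadjusted p under 0.05 in it, where 541 of the 11921 genes tested did. Neither count of calls shows that these members did not differ.

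Probe sets that the platform lists for several histone genes are outside the rule, and none of their values is given to a single gene. There were 20, of which 14 had a mean above the floor, and they were tested as added entries of the same fit. In this fit 1 of 14 fell and none rose at 24 h, where 7.82% of all genes tested fell and 7.22% rose. With siHNF4A 2 of 14 fell, where 4.16% of all genes tested fell. The probe set listed for 14 H4 genes read 1359, 1441 and 642.5 at 0, 1.5 and 24 h in siControl and 800, 1254.5 and 455 in siHNF4A. Both 24 h arrays lay below the other 4, and siHNF4A lay below siControl at each time. The 24 h difference was -0.95 ± 0.14 (limma adjusted p = 0.000445), and -0.74 without the siControl 0 h array, which still passed. It did not pass without the intensity trend (0.0581) or the filter on dim genes (0.25). The siRNA difference was -0.49 ± 0.12 (adjusted p = 0.0178), and -0.35 without that array, when it did not pass (adjusted p = 0.147, within a range of 0.013 to 0.47 over the alternatives). Without both 24 h arrays it was -0.48 and did not pass either (adjusted p = 0.179).

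Probe sets for the same H4 genes did not move alike. Another set listed for 14 H4 genes, ending in _x_at, read 212, 332.5 and 227 in siControl and 315, 326 and 212 in siHNF4A, with -0.24 ± 0.19 at 24 h (limma adjusted p = 0.454). A set listed for 10 H3 genes read 134, 121 and 139 in siControl and 81.7, 87.7 and 86.9 in siHNF4A, with each siHNF4A array below each siControl array. Its siRNA difference was -0.62 ± 0.18 (adjusted p = 0.0443), and it failed the threshold under 10 of 14 alternatives, quantile normalization (0.0621) and leaving out the siControl 0 h array (-0.57, adjusted p = 0.191) among them. Of 3 sets listed for 5 H2B genes, H2BC4 among them, 1 read 47.7, 49.8 and 68.3 in siControl and 49.9, 34.3 and 123 in siHNF4A. Its 24 h arrays were the highest of both arms, at 0.91 ± 0.31 (adjusted p = 0.0652). It passed with 1.5 h as the reference (adjusted p = 0.0239, within a range of 0.0239 to 0.591 over the alternatives). The other 2 sets, both ending in _x_at, had -0.48 ± 0.30 and 0.22 ± 0.30 at 24 h and did not pass. The first of them read 129, 71 and 57.6 in siControl and 65.3, 79.7 and 74.8 in siHNF4A, and was lower at 24 h in siControl but not in siHNF4A. The 3 sets for H2AC18 and H2AC19 had 0.17 ± 0.16, 0.40 ± 0.18 and 0.13 ± 0.40 at 24 h, and none passed.

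Genes of DNA synthesis, with which the clustered histone genes are transcribed in S phase, fell at 24 h. Of 19 measured genes of the S phase list 18 fell and none rose, with a median of -1.16, where 7.82% of all genes tested fell. Without the siControl 0 h array 17 fell, POLA1 no longer passing. CDC6, which loads the replicative helicase, had -2.0 ± 0.17 and the helicase subunit MCM2 -1.65 ± 0.14. GINS2 (-1.6 ± 0.15) and CDC45 (-1.58 ± 0.20), both parts of the active helicase, fell, and TK1 (-0.35 ± 0.15) was the gene that did not pass. The summed signal of the list was 11712.5 to 22600 in siControl and 9381.5 to 20508.5 in siHNF4A. For the siRNA 4 of the 19 fell and none rose, with and without that array, where 4.16% of all genes tested fell. GINS2 (-0.67 ± 0.12), MCM5 (-0.58 ± 0.13), MCM7 (-0.55 ± 0.14) and MCM2 (-0.50 ± 0.12) were the 4. The part of S phase in the histone values was not tested.

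Of 17 measured genes of histone messenger RNA processing and its control, 5 fell at 24 h and none rose, with a median of -0.44. The list includes the general cell cycle regulators E2F1, CCNE1, CCNE2, CDK2 and CDC25A. The share of all genes tested that fell was 7.82%. The same 5 fell without the siControl 0 h array. SLBP, which binds the stem-loop, read 1336, 1277.5 and 712.5 in siControl and 1275, 1214 and 646 in siHNF4A, -0.94 ± 0.12 at 24 h (limma adjusted p = 0.000111). E2F1, a transcription factor of S phase genes, had -2.66 ± 0.27, with its last siHNF4A signal set to the floor. The phosphatase CDC25A (-1.62 ± 0.22), the cyclin CCNE2 (-1.39 ± 0.24) and its kinase CDK2 (-0.80 ± 0.17) were the other genes that fell. Apart from the cell cycle regulators, SLBP alone was called. LSM10, LSM11, ZNF473, CPSF2, CPSF3, SYMPK, CSTF2, ERI1 and GON4L did not pass. NPAT, the coactivator of histone genes that cyclin E and CDK2 act on, had -0.17 ± 0.20, and its partner CASP8AP2 had -0.55 ± 0.20, neither of which passed. For the siRNA 1 of 17 fell, CDK2 (-0.74 ± 0.14), a share near the 4.16% of all genes tested that fell.

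Of 18 measured histone chaperones and related genes, which carry new histones to DNA, 11 fell at 24 h and 1 rose, with a median of -0.50. The shares of all genes tested were 7.82% that fell and 7.22% that rose. With the untreated siControl array left out, ASF1A, HAT1 and HIRA no longer passed, which left 8 that fell beside the 1 that rose. ASF1B, which hands over H3 and H4, read 290, 266 and 119 in siControl and 228, 155 and 63.0 in siHNF4A, -1.57 ± 0.20 at 24 h. CHAF1B (-1.56 ± 0.27) and CHAF1A (-1.05 ± 0.21), subunits of the assembly factor at replication forks, fell, as did HJURP (-1.10 ± 0.16), the chaperone of the centromeric CENPA. NASP, which holds reserves of H3 and H4 and binds H1, fell too (-0.66 ± 0.12). The gene that rose was ATRX (0.65 ± 0.17), which places H3.3 with DAXX. For the siRNA 1 of 18 fell, ASF1B (-0.68 ± 0.16), again near the 4.16% of all genes tested that fell.

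Most histone variants outside the clusters were not called. Of 8 tested, 2 fell at 24 h and none rose, with a median of -0.05, where 7.82% of all genes tested fell. The same 2 fell without the siControl 0 h array. H2AX, the variant phosphorylated at DNA breaks, read 1237, 1507 and 585.6 in siControl and 736, 476 and 245 in siHNF4A. It was lower in siHNF4A at each time (-1.22 ± 0.14, limma adjusted p = 0.000101) and at 24 h (-1.33 ± 0.18). H2AX was the 1 of the 8 that fell with the siRNA, where 4.16% of all genes tested fell. CENPA fell at 24 h (-0.95 ± 0.20). H2AZ1, H2AZ2, MACROH2A1 and H2AJ had differences of -0.15 to 0.10 at 24 h, and none passed. MACROH2A2 had 0.39 ± 0.18 and H3-3A 0.05 ± 0.29 at 24 h, and neither passed. For the siRNA H3-3A had -0.27 ± 0.23, which did not pass. As a check of the treatment, 5 of 9 TGF-beta feedback targets rose at 24 h and 3 at 1.5 h, with and without that array. Of all genes tested 7.22% rose at 24 h and 0.0839% at 1.5 h. PMEPA1 rose by 3.29 ± 0.36 at 24 h, with siControl 0 h set to the floor.

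**Figure D4:**
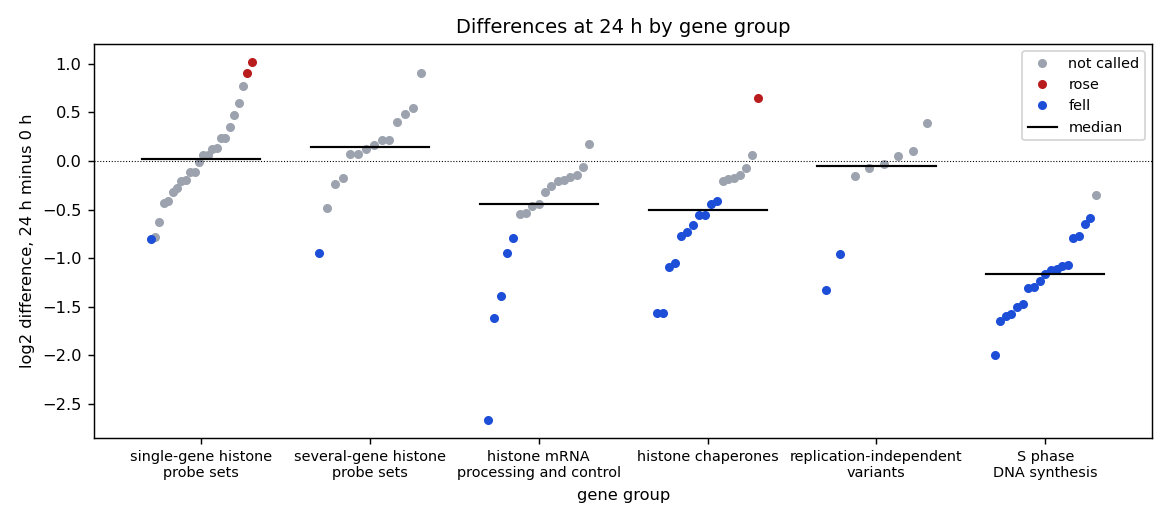
Log2 difference of 24 h minus 0 h for single-gene and several-gene histone probe sets and 4 lists of related genes, 1 point per gene or probe set, coloured by call, with the median as a bar. The medians are 0.02 for single-gene histone sets, 0.15 for several-gene sets and -1.16 for S phase genes. They are -0.44 for processing and control genes, cell cycle regulators included, -0.50 for chaperones and -0.05 for variants.

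The genes most like a member were taken as those with the highest Pearson correlation of log2 signals over the 6 arrays, as a description across 6 arrays that share siRNA and time. For H2AC6 they were SOCS4 (0.998), SMAP1 (0.994) and CYSTM1 (0.993), with SOCS4 at 161, 136 and 278 in siControl and 116, 151 and 241 in siHNF4A. For H1-10 they were LY6E (0.994), DHRS13 (0.991) and ABHD12 (0.991). For H4C11 they were TMEM219 (0.995), YIF1A (0.989) and QDPR (0.980).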

How the data were processed

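MAS5 software (version 5.0) and GCOS gave the deposited intensity of each probe set on a linear scale, per the submitters' processing notes. Scaling was not given in the sources used here. With 2% trimmed off both ends, each array had a mean of 100. Probe-level files and detection calls were not used here, and the number of arrays limits the precision.

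Names came from the platform annotation, which gave 1 symbol for 41097 of 54675 probe sets, several for 1801 and none for 11777. The median of all signals, 12.9, served as a floor before taking log2. The 11921 genes with a mean above it were fitted in limma 3.58.1 (R 4.3.3; lmFit, eBayes with an intensity trend) with siRNA and time as terms, Benjamini-Hochberg adjustment and a threshold of 0.05. This left 2 residual and 12.6 prior degrees of freedom, so a p rests largely on limma's prior. A further fit added the siRNA effect at 24 h and had 1 residual degree of freedom (8.4 prior). Both fits were tested on simulated data with independent noise drawn from the fitted variances. Of genes given a 2-fold change, 87.5% were recovered for the siRNA, 72% for 24 h and 75.5% for 1.5 h. For the difference between arms 38.5% were. Such a simulation cannot show whether a p holds for arrays without replicates.

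Named members were those called, the one with the highest mean signal in each class and the 5 highest and lowest differences per contrast, and the 4 largest differences of each related list. H2AC14, H4C4, H4C8, NPAT, CASP8AP2, TK1, NASP, ATRX, H2AZ1, H2AZ2, H3-3A, MACROH2A1 and H2AJ were chosen after their values were seen. So were the genes named for a call lost without 1 array and the other uncalled genes of the histone messenger RNA list. The second probe set of H2BC5, the several-gene sets and the printed promoters and motifs were also chosen in this way. Members and lists were chosen with earlier results of these data known. Alternatives were quantile and median scaling, other floors, a pseudocount, other probe set rules, no filter, no trend and leaving out arrays. The fit with several-gene probe sets, the count of canonical members and the lists without the siControl 0 h array were added after seeing the data. Promoter windows are RefSeq's (GRCh38.p14), found for 43 of the 50 members. Python 3.11.15, pandas 2.3.3, numpy 2.4.6 and matplotlib 3.10.9 were used.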

Additional observations from a re-analysis of the deposited data

Results flagged for a closer look

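The 1.5 h difference from 0 h had opposite signs in the arms for 2 members above the floor on all 6 arrays, with at least 0.4 on the log2 scale each way. H1-10 had 0.43 in siControl and -0.65 in siHNF4A. H3C8 had 1.6 in siControl and -0.67 in siHNF4A. Each is a difference between single arrays, and the difference between the arms at 1.5 h was not tested. The limit of 0.4 was set after values were seen, and a limit of 0.2 at 24 h had been tried first.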

How the results depend on the processing

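Time was a term of the fit, so the siRNAs were compared within each time; the labels give no replicate numbers to pair arrays further. Of the recomputed counts of members called, 44 stayed within 1.5 times the main count and 9 did not. For the siRNA the count of 1 was 2 with the floor at the 75th percentile (H2BC12 added), 2 without the 1.5 h pair (H1-10 added, 0.60 higher in siHNF4A), and 0 without the filter on dim genes or without the intensity trend, where calls over all genes went from 961 to 0 and 45. For 24 h the count of 3 was 1 without probe sets ending in _x_at or _s_at, where H2AC6 and H1-10 have no probe set, 1 with 1.5 h as the reference, and 0 without the filter or the trend, where calls over all genes went from 1793 to 1 and 457. Limma's prior degrees of freedom were 0.629 and 3.63 in those fits, against 12.6. For the difference between arms the count of 0 was 2 without the filter, both with a mean under the floor, or 2 of 50 members, where 3.23% of all genes were called. Among recomputed differences of single genes and probe sets for the siRNA and both times, 675 kept their side of the threshold, 30 lost their call and 5 gained one, and no called difference changed sign. A signal near the floor of 12.9 cannot show a fall, which limits the 26 members that were not tested and the dim H3 and H4 members.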
